A study of Mus musculus with 32 samples.

Results

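The genes described here encode the scaffold of the postsynaptic density, the protein layer under the membrane of excitatory synapses. They are *Homer1*, *Homer2* and *Homer3*, *Shank1*, *Shank2* and *Shank3*, the MAGUK genes *Dlg2* and *Dlg4*, and *Dlgap1* and *Dlgap3*. They were chosen by name, but with earlier results of these data known, so the list itself was given no test. All 10 have a row among the 23420 genes of the count tables. Each also passed the filter on low counts that left 15589 genes for testing, with at least 129 reads in every mouse.

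RNA from the striatum was sequenced in 8 naïve B6.D2 mice and 8 naïve B6 littermates. B6.D2 mice are congenics of Line 4a. They are heterozygous for a D2-derived (DBA/2J) piece of chromosome 11, on a C57BL/6J background, and B6 littermates, labelled C57BL/6J, lack that piece. The study's genotyping also met residual D2-derived sequence on another chromosome, in mice of both genotypes from Line 4 subcongenics. Mice were about 50 days old by the sample labels and had received no drug, and striatal punches of 3 mm from the left and right sides were pooled for each mouse. The labels give neither sex nor home cage. The study's methods report the same number of females and of males in each genotype, but not which mouse was which. The congenic segment holds many genes, so a difference between genotypes cannot be assigned to a single gene. Sex and home cage could not be modelled here, so it cannot be assigned to the segment alone either. *Dlg4* is the one member on chromosome 11, and by the study's own map of Line 4a it lies distal to the D2-derived segment.

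In the postsynaptic density, Dlg proteins hold glutamate receptors at the membrane, Dlgap proteins (also called SAPAP or GKAP) bind the guanylate kinase domain of the Dlg proteins, Shank proteins bind Dlgap from below, and Homer proteins cross-link Shank to metabotropic glutamate receptors and to calcium channels of the endoplasmic reticulum. A short form of *Homer1*, Homer1a, is induced by neuronal activity and lacks the coiled coil needed for cross-linking, so that it opposes the long forms. In the striatum, whose projection neurons receive dense glutamatergic input from cortex and thalamus, *Shank3* and *Dlgap3* are known as the most abundant members of their families, and mice that lack either gene groom compulsively.

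The promoters of *Homer1*, *Homer2* and *Dlgap1* are shown because these were the members with the smallest p-values between genotypes. RefSeq's GRCm38.p6 tables, the build the reads were aligned to, held a promoter of 250 bases before to 50 bases after the gene start for 5 of the 10 members. The letters TGACG, or CGTCA on the other strand, make up the half-site of the cyclic AMP response element, the sequence bound by CREB. The half-site occurs 3 times in the *Homer1* promoter at chr13:93303507-93303806 on the plus strand, in capitals below, starting 56, 40 and 14 bases before the gene start. It was not found in the *Homer2* promoter at chr7:81706876-81707175 on the minus strand or in the *Dlgap1* promoter at chr17:69968823-69969122 on the plus strand. At least 1 half-site was present in 20.8% of all 32851 promoters of this length.
Homer1: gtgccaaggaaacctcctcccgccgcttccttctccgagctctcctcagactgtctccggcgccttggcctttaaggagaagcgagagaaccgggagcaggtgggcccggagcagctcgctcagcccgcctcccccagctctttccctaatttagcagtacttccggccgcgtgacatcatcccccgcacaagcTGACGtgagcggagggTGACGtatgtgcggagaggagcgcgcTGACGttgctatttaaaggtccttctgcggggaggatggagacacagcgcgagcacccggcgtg
Homer2: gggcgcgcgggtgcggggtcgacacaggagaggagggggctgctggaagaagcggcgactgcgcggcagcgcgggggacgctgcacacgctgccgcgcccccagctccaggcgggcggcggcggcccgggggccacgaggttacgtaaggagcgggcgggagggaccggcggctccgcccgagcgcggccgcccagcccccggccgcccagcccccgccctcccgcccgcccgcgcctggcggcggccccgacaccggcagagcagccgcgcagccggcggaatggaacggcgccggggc
Dlgap1: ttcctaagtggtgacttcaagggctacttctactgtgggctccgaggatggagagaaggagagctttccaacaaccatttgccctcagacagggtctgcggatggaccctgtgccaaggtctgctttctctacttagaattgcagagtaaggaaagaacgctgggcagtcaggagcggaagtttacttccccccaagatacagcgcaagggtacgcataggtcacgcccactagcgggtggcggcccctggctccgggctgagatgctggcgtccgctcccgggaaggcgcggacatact

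The *Homer2* promoter is the richest of these in G and C, at 82.3%, against 63.0% for *Homer1* and 57.7% for *Dlgap1*. The median over all promoters was 52.7%. The promoters of *Homer3* and *Dlg4* also held no half-site.

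Reads counted on genes numbered 19032826 to 33748353 per mouse. CPM values are counts relative to the TMM-scaled size of the library, and the common biological coefficient of variation was 13%. Replicates are separate mice. B6.D2 mouse 1 stood apart from the other libraries, with 30.6% of expressed genes off the mean of the other B6.D2 mice by more than 0.5 on the log2 scale. B6 mouse 8 followed with 10.2%, and the 14 other mice lay between 1.39% and 3.30%. The deviation of B6.D2 mouse 1 ran with transcript length over all genes, and less with GC content. Its median was 0.70 above the group on the log2 scale for transcripts under 1000 bp and −0.64 for transcripts of 8000 bp or more, while across classes of GC content the median stayed between −0.03 and 0.09.

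All 10 members were lower in B6.D2 mouse 1 than in the mean of the 7 other B6.D2 mice. The deviation was largest for *Shank2*, at −1.91 on the log2 scale, and *Shank1*, at −1.65. Of the genes with a known transcript length, 1.5% deviated further downward than *Shank2* and 2.27% further than *Shank1*. *Shank3* was off by −0.77, *Dlg2* by −0.46 and *Homer2* by −0.45, and the remaining members by −0.21 to −0.36. *Shank1* and *Shank2* therefore lay below the medians of their length classes, −0.47 and −0.64, by a wide margin. In the count tables of B6.D2 mouse 1, 27.3% of reads had more than 1 alignment, against 19.5% to 21.4% in B6 mice. Reads on no annotated feature made up 10.2%, against 11.3% (B6 mouse 8) to 15.9% in B6 mice. Whether RNA quality or another property of this library sets the deviations of the members was not tested. Differences between genotypes are given with it and, where it moved them most, also without it.

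**Figure D1:**
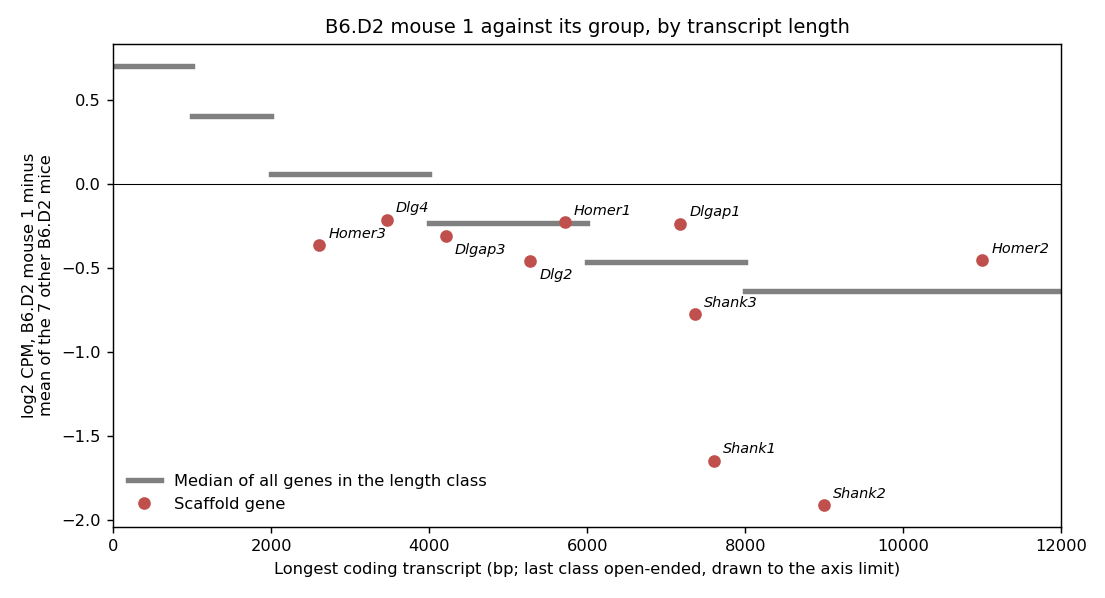
Deviation of B6.D2 mouse 1 from the mean of the 7 other B6.D2 mice (log2 CPM, vertical axis) against the length of the longest coding transcript (bp, horizontal axis). Red points are the 10 scaffold genes and grey bars are medians over all genes in a length class, which fall from 0.70 to −0.64, while *Shank1* and *Shank2* lie at −1.65 and −1.91.

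Levels of different genes were compared as CPM per kilobase of annotated exon, over all 16 mice. *Dlg4*, which encodes PSD-95, was the most abundant member at 203.7 ± 13.6 CPM per kb (SD, n = 16), and *Dlgap3* came next at 143.8 ± 14.3. *Dlg4* was above *Dlgap3* in 16 of 16 mice, by 1.42-fold. *Dlg2*, which encodes PSD-93, and *Shank3* followed at 57.2 ± 5.14 and 55.6 ± 6.91 CPM per kb, and *Dlg2* was the higher of the pair in 8 of 16 mice. At this exon length, an exact sign-flip test of their log2 ratio within mice found no difference (two-sided p = 0.0961, adjusted p = 0.0961 over 9 neighbouring pairs).

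The middle of the order held *Shank1* at 28.6 ± 6.60, *Homer1* at 15.9 ± 2.65, *Dlgap1* at 14.1 ± 1.76 and *Shank2* at 9.47 ± 2.03 CPM per kb (SD, n = 16). *Homer2*, at 3.61 ± 0.73 CPM per kb, and *Homer3*, at 2.07 ± 0.22, were lowest. The 8 neighbouring pairs other than *Dlg2* and *Shank3* differed by the same exact test, with adjusted p-values of 0.0089 or less, but the order from *Shank1* to *Dlgap1* depends on the length used. With the longest annotated transcript in place of all annotated exons, these genes came within 31.1 to 33.5 CPM per kb of each other, and the mean log2 ratio of *Dlg2* to *Shank3* was 0.83.

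Among the members of each of the 4 families, 1 gene made up most of the transcript per kilobase. *Dlg1*, *Dlg3*, *Dlgap2* and *Dlgap4* are no members and were not counted. *Homer1* held 73.5% ± 3.20 (SD, n = 16) of the Homer level per kb, *Dlg4* held 78.1% ± 1.09 of the level of the 2 Dlg genes, and *Dlgap3* held 91.0% ± 1.08 of the level of the 2 Dlgap genes. *Shank3* held 59.99% ± 5.35 of the Shank level, *Shank1* 30.1% ± 4.23 and *Shank2* 9.95% ± 1.30. The sizes of these shares depend on the length used. With the longest annotated transcript they were 83.0% for *Homer1*, 69.75% for *Dlg4*, 82.2% for *Dlgap3* and 61.9% for *Shank3*.

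**Figure D2:**
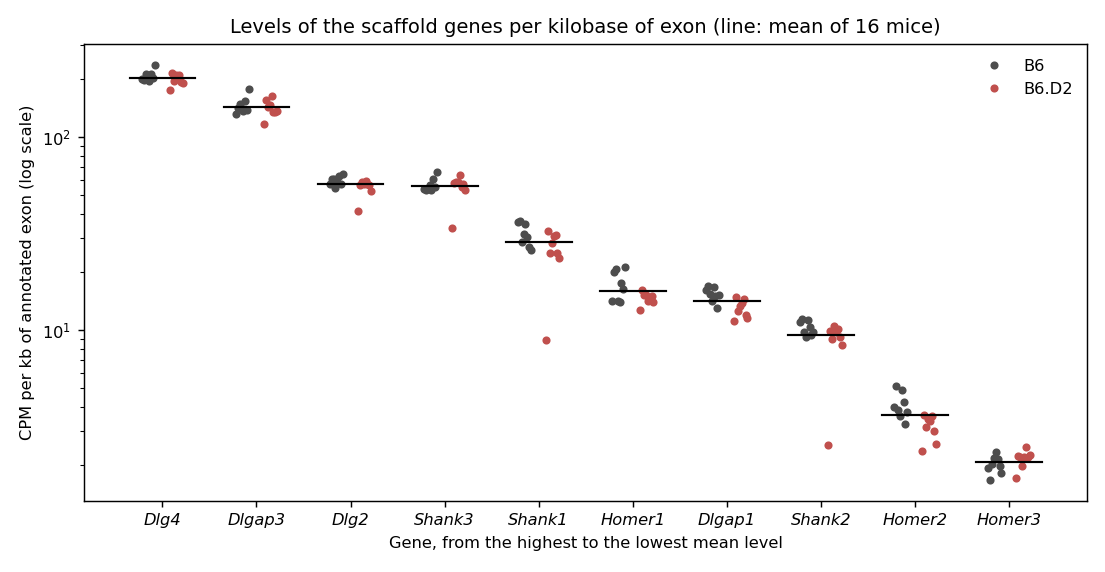
Level of each scaffold gene in CPM per kb of annotated exon (log axis), from the highest to the lowest mean, with 1 point per mouse (B6 grey, B6.D2 red) and a line at the mean of 16 mice. Means run from 203.7 for *Dlg4* to 2.07 for *Homer3*, and *Dlg2* and *Shank3* overlap at 57.2 and 55.6.

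The main comparison asked which scaffold transcripts differ between naïve B6.D2 and B6 striatum. No member passed an FDR of 5% over all genes tested (edgeR's quasi-likelihood test with Benjamini-Hochberg adjustment), a level reached by 0.00641% of all genes, which is 1 gene that is no member. The edgeR likelihood ratio test (0.128% of all genes) and DESeq2 (0.199%) likewise gave 0 members at this FDR. At an unadjusted p under 0.05 there were 3 of 10 members, *Homer1*, *Homer2* and *Dlgap1*, against 10% of all genes. All 3 had the lower mean in B6.D2, a direction and threshold met by 5.14% of all genes. The mean was lower in B6.D2 for 9 of 10 members, against 45.1% of all genes, and the median log2 fold change of the members was −0.18 against 0.01 over all genes tested. The genotypes overlapped for every member, and groups that do not overlap were found for 0.0577% of genes. In bulk RNA, fewer cells of a type and less RNA per cell cannot be told apart.

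*Homer2* had the largest difference of the Homer genes. In B6 mice it ranged from 36.2 to 57.1 CPM (median 43.5), and in B6.D2 mice from 26.2 to 40.3 (median 36.4.) All 8 B6.D2 mice lay below the B6 median, 4 of them below every B6 mouse. The mean was 45.5 ± 7.15 CPM in B6 and 34.9 ± 5.23 in B6.D2 (SD, n = 8 each), a log2 fold change of −0.38 with an SE of 0.10, so that B6 was 1.30-fold higher. The adjusted p was 0.331 by edgeR's quasi-likelihood test and 0.0899 and 0.0874 by the likelihood ratio test and DESeq2, and the exact permutation test of this gene alone gave a two-sided p of 0.0031. The study had listed *Homer2* in its own comparison of these mice, so its direction here is not independent evidence.

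*Homer1*, the most abundant Homer gene, ranged from 157.6 to 241.6 CPM in B6 mice (median 190.9), and from 143.6 to 183.8 in B6.D2 mice (median 166.3.) The B6 mice were spread widely. B6 mice 1, 4 and 5 lay between 157.6 and 160.4 CPM, inside the B6.D2 range, and B6 mice 2, 3 and 8 lay between 227.4 and 241.6, above every B6.D2 mouse. The mean was 195.4 ± 35.5 CPM in B6 and 165.2 ± 12.1 in B6.D2 (SD, n = 8 each), a coefficient of variation of 18.1% against 7.35%. The log2 fold change was −0.24 with an SE of 0.09 and an adjusted p of 0.421 (edgeR), and the exact permutation p was 0.0458. The counts do not separate Homer1a from the long forms.

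*Homer3* was the one member with the higher mean in B6.D2. It ranged from 5.73 to 7.98 CPM in B6 mice (median 6.87), and from 5.90 to 8.49 in B6.D2 mice (median 7.52.) The ranges overlapped almost throughout. The log2 fold change was 0.10 with an SE of 0.08 and an adjusted p of 0.680 (edgeR). Its share of the Homer level per kb was 8.79% ± 1.80 in B6 and 10.8% ± 0.89 in B6.D2 (SD, n = 8 each), while that of *Homer2* was 17.7% ± 3.11 and 15.7% ± 1.46.

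Among the Shank genes the differences turned on B6.D2 mouse 1. *Shank1* ranged from 216.7 to 303.8 CPM in B6 mice (median 255.8), and from 73.8 to 270.7 in B6.D2 mice (median 220.8.) The value of 73.8 is that of B6.D2 mouse 1, and the 7 other B6.D2 mice lay between 196.1 and 270.7. The log2 fold change was −0.29 with an SE of 0.18 (adjusted p = 0.588, edgeR), and −0.17 with an SE of 0.09 without that mouse.

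*Shank2* ranged from 98.2 to 122.3 CPM in B6 mice (median 107.1.) In B6.D2 mice it ranged from 27.1 to 112.2 (median 101.3), and the lowest value after B6.D2 mouse 1 was 89.4. The log2 fold change was −0.24 with an SE of 0.19 (adjusted p = 0.661, edgeR), and −0.10 with an SE of 0.06 without mouse 1. The coefficient of variation of *Shank2* was 8.38% in B6 and 29.7% in B6.D2.

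*Shank3*, the most abundant Shank gene, gave no difference of either sign that held. It ranged from 472.3 to 583.2 CPM in B6 mice (median 487.5), and from 300.2 to 566.5 in B6.D2 mice (median 511.3.) The B6.D2 median was thus above the B6 median. The log2 fold change was −0.04 with an SE of 0.09 (adjusted p = 0.890, edgeR) and 0.03 with an SE of 0.05 without B6.D2 mouse 1.

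Of the MAGUK genes, *Dlg2* ranged from 601.3 to 706.5 CPM in B6 mice (median 655.1), and from 455.4 to 651.1 in B6.D2 mice (median 627.5.) All 8 B6.D2 mice lay below the B6 median. The log2 fold change was −0.11 with an SE of 0.06 (adjusted p = 0.562, edgeR), and −0.07 with an SE of 0.04 without B6.D2 mouse 1, which was the lowest. *Dlg4* ranged from 913.9 to 1104.8 CPM in B6 mice (median 951.7), and from 814.1 to 1002.7 in B6.D2 mice (median 931.2.) Its log2 fold change was −0.06 with an SE of 0.05 (adjusted p = 0.677, edgeR), or −0.04 without B6.D2 mouse 1 and likewise without B6 mouse 8, and 5 of 8 B6.D2 mice were below the B6 median.

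The Dlgap genes differed from each other. *Dlgap1* ranged from 221.6 to 287.6 CPM in B6 mice (median 260.2), and from 190.0 to 253.1 in B6.D2 mice (median 219.0.) All 8 B6.D2 mice were below the B6 median and 4 were below every B6 mouse. The mean was 260.0 ± 22.0 CPM in B6 and 220.3 ± 23.1 in B6.D2 (SD, n = 8 each), a log2 fold change of −0.24 with an SE of 0.07, so that B6 was 1.18-fold higher. The adjusted p was 0.331 by edgeR's quasi-likelihood test, and the exact permutation p was 0.0051. Without B6.D2 mouse 1 the log2 fold change was −0.21 with an SE of 0.06.

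*Dlgap3*, which encodes the SAPAP abundant in striatum, ranged from 594.1 to 805.5 CPM in B6 mice (median 639.3) and from 527.9 to 740.6 in B6.D2 mice (median 630.1.) Its log2 fold change was −0.05 with an SE of 0.07 (adjusted p = 0.835, edgeR), or −0.01 without B6.D2 mouse 1 and −0.01 without B6 mouse 8, and 4 of 8 B6.D2 mice were below the B6 median. The share of *Dlgap1* in the level per kb of the pair was 9.54% ± 1.17 in B6 and 8.41% ± 0.64 in B6.D2 (SD, n = 8 each).

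**Figure D3:**
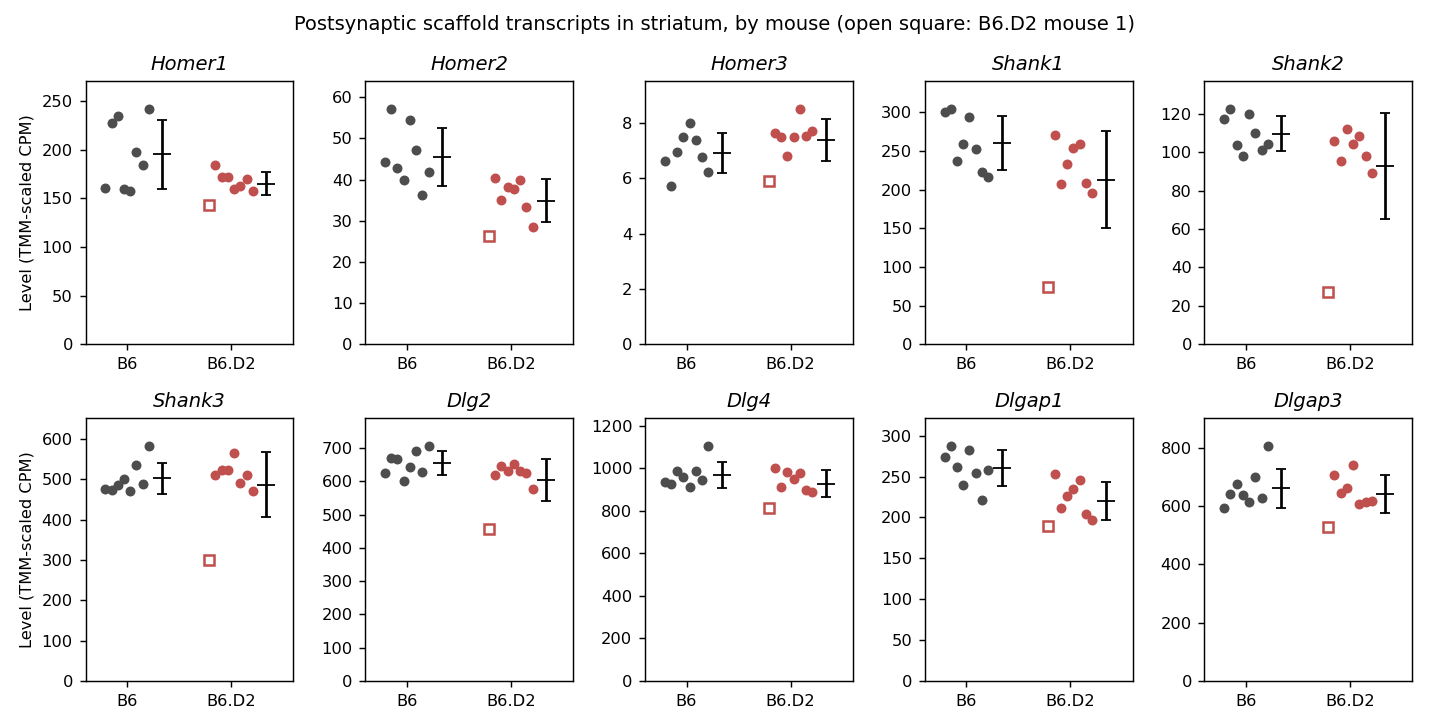
CPM of the 10 scaffold genes in each mouse, on axes from 0, with B6 in grey and B6.D2 in red (8 mice each), the mean and SD as a bar beside each group, and B6.D2 mouse 1 as an open square. All B6.D2 points lie below the B6 median for *Homer1*, *Homer2*, *Dlg2* and *Dlgap1*, and the open square is far below the rest for *Shank1* (73.8) and *Shank2* (27.1).

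Mice 1 to 4 of each genotype were sequenced on lanes 5 and 6 and mice 5 to 8 on lanes 7 and 8, and the comparison was repeated within each set of lanes. *Homer2* had a log2 fold change of −0.40 on lanes 5 and 6 and −0.37 on lanes 7 and 8. The values were −0.27 and −0.21 for *Dlgap1* and −0.22 and −0.27 for *Homer1*. *Shank1* gave −0.49 on lanes 5 and 6, which hold B6.D2 mouse 1, and −0.11 on lanes 7 and 8. No member passed an FDR of 5% for the interaction of lanes and genotype (edgeR), with adjusted p-values of 0.950 or more, and none was at an unadjusted p under 0.05, against 1.88% of all genes.

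Without B6.D2 mouse 1, *Homer1*, *Homer2* and *Dlgap1* were again the 3 members at an unadjusted p under 0.05 (13.4% of genes), and the median log2 fold change of the members was −0.08. With B6 mouse 8 left out as well, the 3 members were *Homer2*, *Dlgap1* and *Shank1*, against 12.8% of genes, and *Homer1* had a log2 fold change of −0.17 with an SE of 0.08.

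Markers of cortical glutamatergic neurons moved with the genotype. All 14 had the lower mean in B6.D2, 10 of them at an unadjusted p under 0.05 and none at an FDR of 5%, and their median log2 fold change was −0.54. Over all genes tested, 45.1% had the lower mean and 5.14% were lower at that unadjusted p. The study had listed 6 of the 14 in these mice. Their summed level ranged from 542.7 to 877.6 CPM in B6 and from 368.6 to 756.2 CPM in B6.D2, and none of the 14 was at 0 throughout. *Slc17a7*, the vesicular glutamate transporter of cortical neurons, was at 415.3 ± 81.9 CPM in B6 and 268.3 ± 82.2 in B6.D2 (SD, n = 8 each), and *Kcnv1* at 70.3 ± 11.4 and 54.1 ± 6.06. The tissue expressed its defining markers in both genotypes. The 12 markers of striatal projection neurons had a median log2 fold change of 0.04, with none at an unadjusted p under 0.05, and *Pde10a* and *Ppp1r1b*, which encodes DARPP-32, had means of 1531 and 1284 CPM in B6 and 1492 and 1403 CPM in B6.D2.

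A cortical score was made for each mouse from the 8 cortical markers that the study had not listed, by averaging their log2 CPM after each gene had been standardized over mice. It ranged from −0.77 to 1.14 in B6 mice (median 0.46), and from −1.30 to 0.88 in B6.D2 mice with a median of −0.38. With the score as a covariate, the log2 fold change was −0.19 with an SE of 0.10 for *Homer2*, −0.10 with an SE of 0.06 for *Dlgap1* and −0.16 with an SE of 0.11 for *Homer1*. No member was then at an unadjusted p under 0.05, against 2.78% of genes. With B6.D2 mouse 1 also left out, *Shank1* was at −0.01 with an SE of 0.08 and *Shank2* at −0.01 with an SE of 0.05, the median of the members was −0.01, and none was at an unadjusted p under 0.05 (4.11% of genes). Cortical tissue in the punch and a lower level in the same cells cannot be told apart in these libraries.

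**Figure D4:**
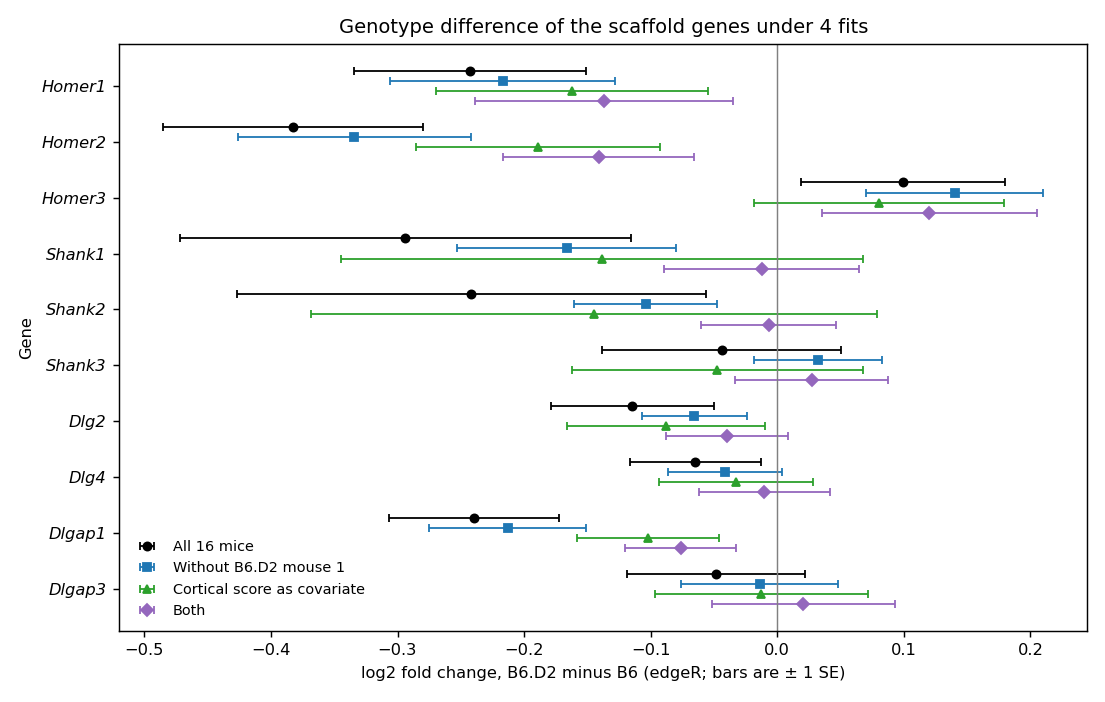
log2 fold change (B6.D2 minus B6, horizontal axis) of each scaffold gene with its SE, over all 16 mice (black), without B6.D2 mouse 1 (blue), with the cortical score as a covariate (green) and with both changes (purple). *Homer2* moves from −0.38 to −0.19 and *Dlgap1* from −0.24 to −0.10 with the score, and the bars of *Shank1* and *Shank2* shorten without mouse 1.

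Across mice of the same genotype, *Homer2*, *Dlgap1*, *Shank1* and *Shank2* varied together with or without the outlying mice, B6.D2 mouse 1 and B6 mouse 8. The log2 CPM of each member was set against every other after the genotype means had been removed, with 100000 permutations of mice and Benjamini-Hochberg adjustment over the 45 pairs. All members share the library and its depth in each mouse. Over 16 mice, 44 of 45 correlations were positive and 19 had an adjusted p under 0.05 for Pearson's r, 13 of them also for Spearman's ρ. B6.D2 mouse 1, low for every member, raised the median r but not the r of every pair. *Shank1* with *Dlg2* had r = 0.78 with that mouse and −0.04 without it, whereas *Homer2* with *Shank2* had 0.67 with it and 0.89 without it. Without that mouse, 12 pairs remained, all of them among the 19, and the median r dropped from 0.54 to 0.12. Over 16 mice, every pair of *Shank3*, *Dlg2*, *Dlg4* and *Dlgap3* also passed for both measures. Their r ran from 0.72 for *Dlg2* with *Dlg4* to 0.93 for *Shank3* with *Dlg2*. Without B6.D2 mouse 1, *Dlg2* with *Dlg4* alone of these no longer passed for r (r = 0.55, adjusted permutation p = 0.091). That pair also failed for ρ (adjusted permutation p = 0.318). So did *Shank3* with *Dlg2*, *Shank3* with *Dlg4* and *Dlg4* with *Dlgap3*, at adjusted permutation p-values of 0.054, 0.053 and 0.056 for ρ. Without B6.D2 mouse 1 and B6 mouse 8, 7 pairs were left, and *Shank3* with *Dlgap3* was the only one from this set.

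Of those 7 pairs, 6 were all the pairs that *Homer2*, *Dlgap1*, *Shank1* and *Shank2* can form. Over these 14 mice *Shank1* and *Dlgap1* had r = 0.92 (permutation p = 2e-05, adjusted p = 0.0006) and ρ = 0.90 (permutation p = 4e-05), and r was 0.89 without the 2 mice farthest from the median. *Homer2* and *Dlgap1* had r = 0.90 (permutation p = 3e-05, adjusted p = 0.0006) and ρ = 0.88 (permutation p = 9e-05), with r = 0.81 without the farthest 2. The weakest of the 6 was *Homer2* with *Shank1*, at r = 0.82 (permutation p = 0.00038, adjusted p = 0.0034) and ρ = 0.80 (permutation p = 0.0011), with r = 0.71 without the farthest 2. With only B6.D2 mouse 1 left out, the 6 pairs had r between 0.69 and 0.82 on lanes 5 and 6 (7 mice) and between 0.86 and 0.98 on lanes 7 and 8 (8 mice).

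The remaining pair was *Shank3* with *Dlgap3*, the members abundant in striatum. Over 14 mice it had r = 0.78 (permutation p = 0.00088, adjusted p = 0.0057) and ρ = 0.71 (permutation p = 0.0059), with r = 0.49 without the 2 mice farthest from the median. Without B6.D2 mouse 1 this relation did not hold within lanes 5 and 6, where r was 0.04 over 7 mice, and was 0.95 over the 8 mice of lanes 7 and 8. Those 8 include B6 mouse 8, which had the highest level of both genes, 583.25 CPM for *Shank3* and 805.53 for *Dlgap3*. *Homer2*, *Dlgap1*, *Shank1* and *Shank2* had r between −0.26 and −0.02 with *Shank3* over 15 mice, with adjusted p-values of 0.63 or more. These values differed by lanes, with r between −0.89 and −0.66 on lanes 5 and 6 (7 mice) and between −0.09 and 0.21 on lanes 7 and 8 (8 mice). *Homer1* and *Homer2* had r = 0.12 (permutation p = 0.67) and ρ = 0.17 (permutation p = 0.54) over 15 mice, with r = 0.47 without the farthest 2. The lowest value of any pair was that of *Homer1* with *Homer3*, at r = −0.59 (permutation p = 0.022, adjusted p = 0.069) and ρ = −0.44 (permutation p = 0.10) over 15 mice, with r = −0.39 without the farthest 2.

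**Figure D5:**
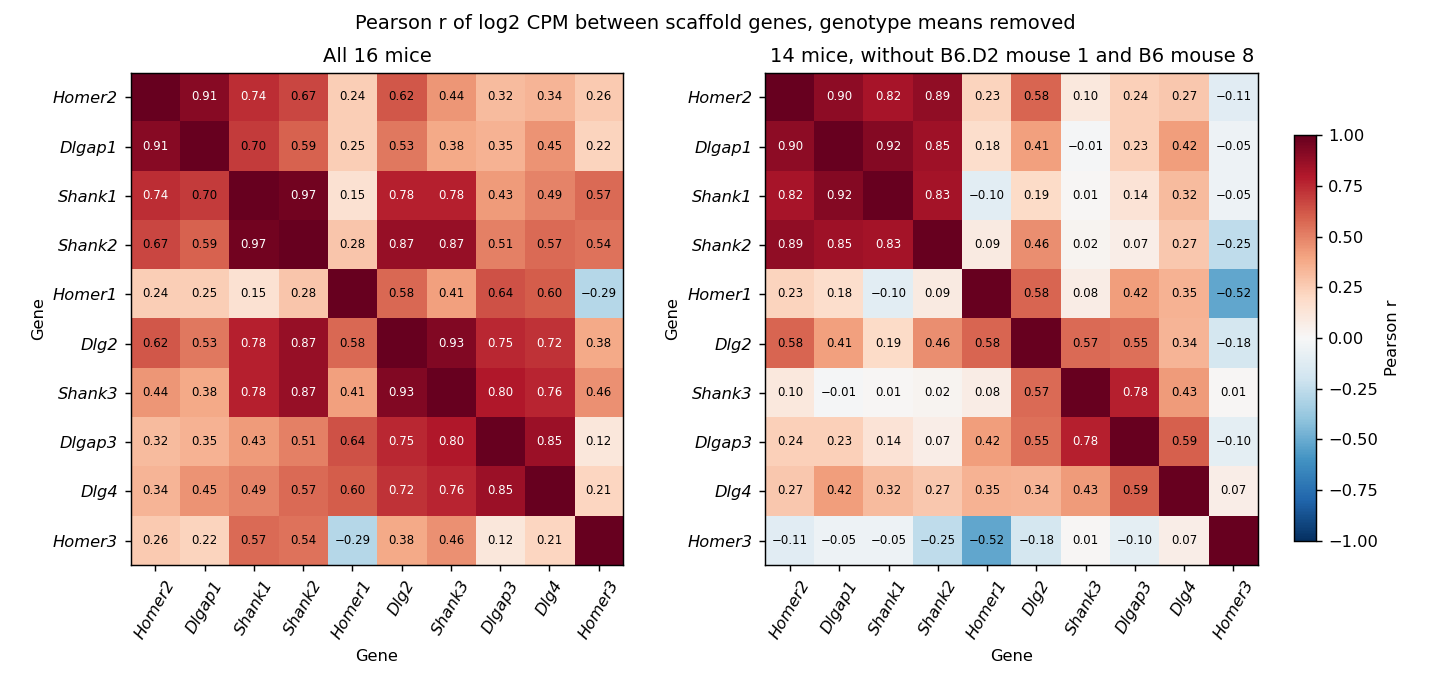
Pearson r of log2 CPM between each pair of scaffold genes after removal of the genotype means, for all 16 mice (left) and for the 14 mice without B6.D2 mouse 1 and B6 mouse 8 (right), on a colour scale from −1 to 1. Nearly every cell is positive on the left, whereas on the right *Homer2*, *Dlgap1*, *Shank1* and *Shank2* form a block with r between 0.82 and 0.92.

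The same 4 genes were those that passed with the cortical score. Over the 14 mice, with adjustment over the 10 members, *Dlgap1* had r = 0.89 with the score (permutation p = 5e-05, adjusted p = 0.0005) and ρ = 0.86 (permutation p = 0.00013). *Homer2* had r = 0.78 (permutation p = 0.0011, adjusted p = 0.0055) and ρ = 0.75 (permutation p = 0.0026), *Shank1* had r = 0.73 (permutation p = 0.0039, adjusted p = 0.013) and ρ = 0.66 (permutation p = 0.012), and *Shank2* had r = 0.69 (permutation p = 0.0072, adjusted p = 0.018) and ρ = 0.69 (permutation p = 0.0074). Without the 2 mice of most extreme score these 4 values of r were 0.83, 0.73, 0.58 and 0.71. The other 6 members had r between −0.17 and 0.60 with adjusted p-values of 0.0517 or more. Over all 16 mice, 2 members passed, *Dlgap1* at r = 0.81 and *Homer2* at r = 0.68. Without B6.D2 mouse 1 the score and *Dlgap1* had r = 0.88 on lanes 5 and 6 and 0.98 on lanes 7 and 8.

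The genes whose level ran most like each member, among 10321 genes with a mean of at least 10 CPM, were named as a measure of likeness with no test. Over 16 mice *Dlgap3* was most like *Ppp1r9b*, the gene of spinophilin, a spine protein, at r = 0.93, and *Dlgap1* was most like *Slitrk1*, which encodes a synaptic adhesion protein, at r = 0.94. *Shank2* with *Hivep3* reached r = 0.99 and *Shank1* with *Plekha7* 0.98, values that include B6.D2 mouse 1. Without that mouse *Dlgap1* was most like *Gabbr2*, a subunit of the GABA-B receptor, at r = 0.97. The 2 genes closest to *Dlgap3* were then *6030419C18Rik* and *Jph3*, at 0.94 and 0.91, in place of *Ppp1r9b*. *Homer2* and *Shank2* were both most like *3110047P20Rik*, at 0.95 and 0.92, and *Shank3* had *Caln1* and *Dlgap3* as the closest, both at 0.88.

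Other genes of the postsynaptic density were counted by list. None of the genes in the lists below passed an FDR of 5%. Over all genes tested, 45.1% had the lower mean in B6.D2, 10% were at an unadjusted p under 0.05 and 5.14% were lower at that threshold. Without B6.D2 mouse 1, 13.4% of genes were at that threshold. Of 13 other MAGUK, SAPAP and partner genes, 12 had the lower mean in B6.D2 and 3 were at an unadjusted p under 0.05, all lower, with a median log2 fold change of −0.10, or −0.06 without B6.D2 mouse 1. These were *Lin7a* (−0.25, SE 0.06), *Cask* (−0.18, SE 0.05), both of a complex that carries NMDA receptors along microtubules, and *Mpp2* (−0.10, SE 0.04). Of 19 other adaptors and signalling enzymes, 13 had the lower mean, with 1 gene at an unadjusted p under 0.05 in each direction and a median of −0.08. Without B6.D2 mouse 1, in which this list deviated by −0.57 on average on the log2 scale, 3 were lower and 1 higher at that threshold and the median was −0.03. *Kalrn*, a gene of dendritic spines, was at −0.23 (SE 0.09), and *Sharpin*, which encodes a partner of Shank, was at 0.23 (SE 0.06) and above the B6 median in 8 of 8 B6.D2 mice. The third gene of that list by p-value, *Cnksr2*, was at −0.25 (SE 0.14). Of 11 actin-linked spine genes, 2 of them listed by the study, none was at an unadjusted p under 0.05, the median was −0.03 (−0.02 without B6.D2 mouse 1, with 1 gene then higher at that threshold), and *Lrrc7*, *Actn2* and *Synpo* were at −0.29 (SE 0.15), 0.11 (SE 0.06) and −0.10 (SE 0.07).

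Among 12 receptors and channels held by the scaffold, 10 had the lower mean in B6.D2 (45.1% of all genes) and 2 were at an unadjusted p under 0.05 (10% of all genes), with a median of −0.10. The median was −0.04 without B6.D2 mouse 1, in which this list deviated by −0.65 on average. The 2 genes were the NMDA receptor subunit genes *Grin2a*, at 13.2 ± 7.70 CPM in B6 and 5.24 ± 1.82 in B6.D2 (SD, n = 8 each), and *Grin2b*, at 27.7 ± 18.3 and 10.9 ± 3.94. Their exact permutation p-values were 0.0171 and 0.0340 and their adjusted p-values by edgeR 0.331 and 0.34. *Nlgn1*, a neuroligin gene, was at −0.12 (SE 0.07). Of 11 activity-regulated genes, the class of immediate early genes to which Homer1a belongs, 11 had the lower mean in B6.D2 and 3 were at an unadjusted p under 0.05, with a median of −0.35. *Nr4a3* was at −0.56 (SE 0.24), *Egr4* at −0.35 (SE 0.16) and *Egr1* at −0.28 (SE 0.13). Without B6.D2 mouse 1 the median was −0.36, with 2 genes at that threshold, against 13.4% of all genes.

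Markers of the other cells that a punch can hold gave no gene at an FDR of 5%. The medians of the log2 fold changes were 0.11 for 8 oligodendrocyte genes, 0.08 for 7 astrocyte genes, 0.09 for 8 microglial genes, 0.11 for 6 endothelial genes and 0.20 for 7 choroid plexus genes. For the 6 of 10 genes of hypothalamus and ventral forebrain that passed the filter it was 0.00. Of all these, 1 gene was at an unadjusted p under 0.05, *Nkx2-1* of the ventral forebrain, at 7.77 ± 1.41 CPM in B6 and 9.68 ± 1.83 in B6.D2 (SD, n = 8 each). The medians without B6.D2 mouse 1 were 0.05 for oligodendrocyte, 0.05 for astrocyte, 0.03 for microglial, 0.16 for endothelial, 0.26 for choroid plexus and −0.08 for hypothalamic and ventral forebrain genes, and 2 microglial, 1 astrocyte, 1 endothelial and 1 ventral forebrain gene were higher at an unadjusted p under 0.05. Over all genes, 10% were at that threshold with all mice and 13.4% without B6.D2 mouse 1. Summed levels overlapped between genotypes for each of these lists.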

How the data were processed

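Striatal RNA of 16 mice was sequenced by the authors as 50 base single reads from stranded, poly(A)-selected libraries. By their methods and scripts the authors trimmed reads with FastX and aligned them to mm10 (UCSC) with TopHat. Reads on exons were then counted by htseq-count (0.6.1p1, union mode). Strand was ignored, so a gene and an antisense partner cannot be told apart. The deposited values are raw counts per gene, mouse and lane. Reads with more than 1 alignment (19.5% to 27.3% of each table) or on several genes were left out of gene counts by the authors. The fold changes and p-values in the authors' tables of their own comparisons were not used. Which genes the study had listed as changed was used, to choose the markers of the cortical score and to mark listed genes. Sample labels and the methods differ in punch diameter, age and RNA kit.

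The 31 lane files were summed per mouse. The lane files of 15 mice differed by little more than sampling noise (chi-square per degree of freedom 0.997 to 1.05, and 13 of 150 lane comparisons of members, 8.67%, past 1.96 in z), and for B6 mouse 7 only 1 lane file was used here. Median depth was 30222554.5 reads on genes in B6 and 29352253.5 in B6.D2. Genes were filtered with filterByExpr, scaled with TMM and tested with edgeR 4.0.16 (quasi-likelihood test, R 4.3.3), with Benjamini-Hochberg adjustment over 15589 genes and no covariate, since home cage, which the study's model held, is not in the labels. A prior count of 0.5 entered log2 CPM. An exact permutation test over the 12870 splits of the mice was also run for each member (scipy 1.17.1). The script was tested on simulated counts. Exon lengths came from GENCODE on NCBIM37, matched by symbol, and 90.2% of tested genes had a transcript length.

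The members and gene lists were chosen with earlier results of these data known. Genes named were the members, the 3 genes of smallest p in each synaptic list, the 2 of highest CPM in each cell type list, and the 2 most like each member. Alternatives were other scaling factors and filters, DESeq2 1.42.0, the likelihood ratio test, lanes, a cortical score, a block for mouse number and leaving out each mouse. Leaving out both outlying mice, or B6.D2 mouse 1 together with the score, and the correlations and order without B6.D2 mouse 1 or both, were chosen after seeing the data.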

Additional observations from a re-analysis of the deposited data

Results flagged for a closer look

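In each genotype the 8 values of every member were searched for a mouse whose gap to its nearest neighbour exceeded 0.526 of the whole range, Dixon's 95% critical value. This met 5 of 20 groups, and chance alone gives about 1 in 20. The 4 in B6.D2 all belong to mouse 1. *Shank1* was at 73.8 CPM there against 196.1 in the next mouse, *Shank2* at 27.1 against 89.4, *Shank3* at 300.2 against 472.2 and *Dlg2* at 455.4 against 576.0. The remaining value was *Dlg4* at 1104.8 CPM in B6 mouse 8, against 989.1 in the next B6 mouse. The part that the length dependence of B6.D2 mouse 1 or any property of B6 mouse 8 has in these values was not tested.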

How the results depend on the processing

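Across 30 alternatives, 295 of 300 log2 fold changes of the members kept their direction and their side of an FDR of 5%, and no member passed that FDR. *Shank3* was higher in B6.D2 in the remaining ones, at 0.032 without B6.D2 mouse 1 (leaving out each mouse gave −0.0802 to 0.032), 0.064 with both outlying mice left out and 0.0271 with mouse 1 left out and the cortical score as a covariate. *Dlgap3* was at 0.0302 and 0.0206 under the last 2. The count of 295 takes no account of size. With mouse 1 left out and the score as a covariate, *Shank1* moved from −0.294 to −0.0124 and *Shank2* from −0.242 to −0.0068. Both were counted as kept. The 3 members at an unadjusted p under 0.05 became 0 with the cortical score as a covariate, with or without mouse 1. The members' median was −0.193 to −0.0848 when each mouse was left out, −0.0833 without both outlying mice and −0.0113 with mouse 1 left out and the score. Correlated pairs numbered 19 over 16 mice, 24 with lane means also removed, 12 without mouse 1 and 7 without both. Over all genes, 1 passed an FDR of 5%, 20 by the likelihood ratio test and 31 by DESeq2.

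The labels do not say that mouse numbers mark pairs, and the values below do not settle it. Same-numbered mice correlated at −0.16 to 0.49 in their deviations, with 4 of 8 above 0.1 and 2 of 8 closest to their own number. With the replicate block *Homer2* was at −0.38 (edgeR adjusted p = 0.297), 0 members and 0 genes passed an FDR of 5%, and 3 members were at an unadjusted p under 0.05, against 8.83% of genes. Each member had 129 or more reads per mouse. For *Homer3*, the member with the fewest reads (129 to 256), counting error makes up part of the spread, and the 2 were not separated. The order of levels from *Shank1* to *Dlgap1* rests on the exon length used, as do the sizes of the shares within families.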
